A study of Homo sapiens with 14 samples.

Results

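DHRS2, CLU, SYP, TUBB3, SERPINI1 and TXNIP are 6 genes often named as induced by inhibitors of histone deacetylases. Their levels were followed in 6 RNA libraries labelled as a human pancreatic cancer cell line. The set was listed by symbol, and each symbol was matched to a single Ensembl gene ID, so it holds 6 of the 61541 genes counted. All 6 genes passed the filter on low counts that left 19181 genes for testing. The genes were selected on their measured RNA levels in these same libraries, so their levels and fold changes are given as a description, without a test.

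The RNA came from cells labelled BxPC-3 at day 3. There were 3 libraries with the treatment shControl and the genotype WT, and 3 with the treatment shHDAC5 and the genotype HDAC5 knockdown. The title of the series asks how loss of HDAC5, a class IIa deacetylase, acts on arachidonic acid metabolism through the transcription factor GATA1. For binding, PANC-1, also a pancreatic cancer line, was used at day 3, with GATA1 pulled down in 2 immunoprecipitations and 2 inputs for shControl (genotype WT) and as many for shHDAC5 (genotype HDAC5 knockdown). No deacetylase inhibitor is named in the sample labels, and neither the hairpin sequences nor their delivery is described in them. The labels do not say whether replicates were separate cultures, so any p-value sets a difference against library-to-library spread that may be technical.

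Histone deacetylases remove acetyl groups from lysines of histones and of other proteins, and the class I enzymes act mostly inside corepressor complexes. Inhibitors such as vorinostat (also called SAHA), butyrate and trichostatin A block the zinc-dependent enzymes and raise histone acetylation. Cells given them switch on some genes, neuronal and cell cycle inhibitor genes among them, and lower others, such as growth and replication genes.

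The libraries held 15179758 to 17854340 counts, and the log2 levels of any 2 libraries of a group correlated at 0.9925 or more across genes. HDAC5 itself went against the label. It had 95.4, 91.7 and 97.7 CPM (counts relative to the scaled library size) in the libraries labelled shControl and 162, 161 and 169 CPM in those labelled shHDAC5, a log2 fold change of 0.79 (standard error 0.0358, adjusted p = 3.95e-40 by edgeR's quasi-likelihood test, Benjamini-Hochberg). Every direction given here is therefore between libraries as labelled, and what was done to the cells of each group is in doubt. By that test 44.8% of the 19181 genes were higher and 39.9% were lower in the libraries labelled shHDAC5. Of the epithelial markers expected of a pancreatic cancer line, KRT8 and KRT18 were abundant (717 and 404 CPM in shControl), whereas EPCAM (1.84 and 1.99 CPM), CDH1 (1.43 and 1.33 CPM) and KRT19 (0.0215 and 0.0947 CPM) were at or near 0 in both groups. Of the 6 epithelial markers 5 were tested, of which KRT8 rose, KRT7 (371 to 25.3 CPM) and KRT18 fell and 2 did not pass. Whether the cells are the line named in the labels is therefore also uncertain. The 5 fibroblast markers summed to 92.2 to 99.4 CPM in the libraries labelled shControl and 78.0 to 83.0 CPM in the others, nearly all of it COL1A1, with LUM at 0 throughout. The 5 leukocyte markers summed to 3.26 to 4.05 CPM against 3.86 to 5.38 CPM.

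Of the 6 genes, 5 were higher and 1, TXNIP, was lower in every library labelled shHDAC5 than in every library labelled shControl. For 6 of 6 the groups did not overlap, a state shared by 84.8% of all genes tested. The median log2 fold change of the 6 was 2.77, next to 0.09 over all genes tested. DHRS2 passed the filter on low counts only through the libraries labelled shHDAC5, so its direction was fixed by it. The genes differed widely among themselves, from 2040-fold higher for DHRS2 to 1.39-fold lower for TXNIP. In bulk RNA of this kind, fewer cells that express a gene and less RNA per cell cannot be told apart.

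**Figure D1:**
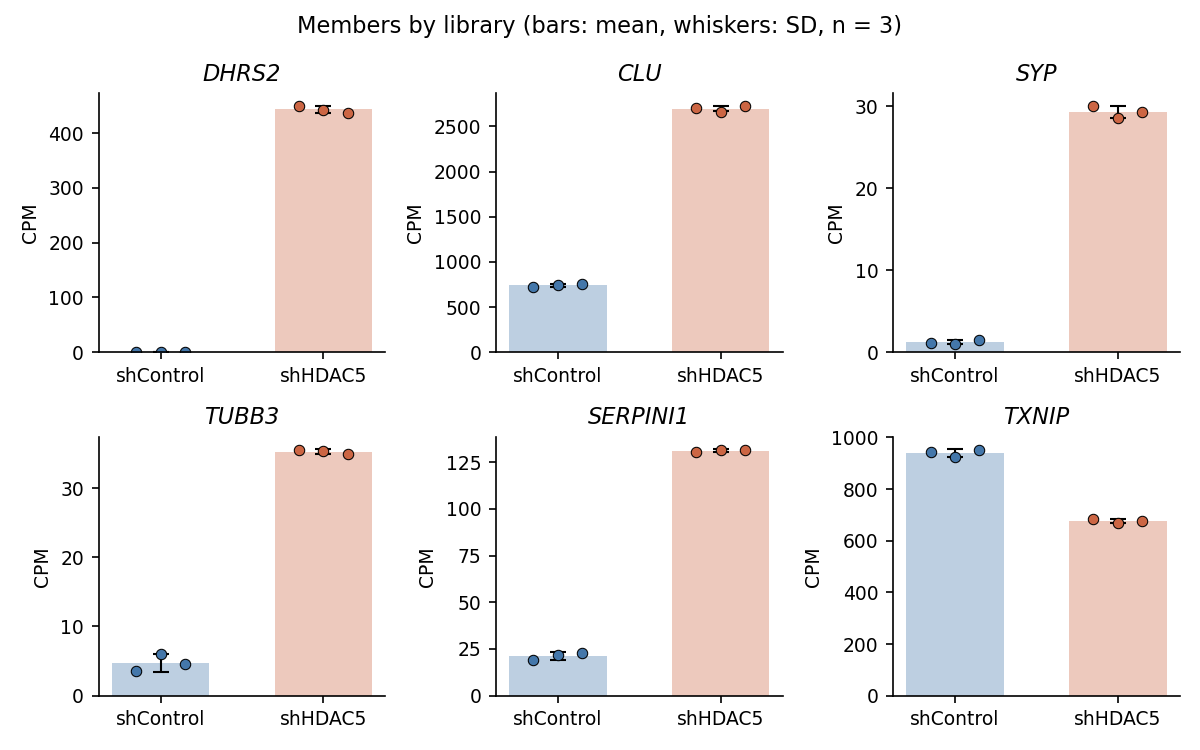
Level of each gene by library in CPM on a linear axis from 0, with points for the 3 libraries of each label, bars for their mean and whiskers for the SD. The groups are separate in every panel, with DHRS2 near 0 in the libraries labelled shControl and TXNIP the only panel in which the libraries labelled shHDAC5 sit lower.

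Per deposited gene length, TXNIP was the most abundant of the 6 in the libraries labelled shControl, at 917 ± 15.05 TPM (SD, n = 3). TPM are a share of counts corrected for that length, which need not be the length of the transcript present. CLU followed at 415 ± 6.10 TPM, SERPINI1 at 34.96 ± 3.14 TPM, TUBB3 at 2.24 ± 0.585 TPM, SYP at 0.624 ± 0.117 TPM and DHRS2 at 0.102 ± 0.0480 TPM. In the libraries labelled shHDAC5 the order was CLU at 1621 ± 10.5 TPM, TXNIP at 709 ± 8.40 TPM, SERPINI1 at 233 ± 1.64 TPM, DHRS2 at 223 ± 3.91 TPM, TUBB3 at 18.0 ± 0.263 TPM and SYP at 15.8 ± 0.382 TPM. By TPM, CLU and TXNIP thus changed places, and DHRS2 moved from last to just under SERPINI1. The order between genes rests on the deposited lengths, 7527 bases for DHRS2 and 2128 for SERPINI1. In CPM, DHRS2 (444) stood above SERPINI1 (131) in the libraries labelled shHDAC5. Within each group no library of a gene reached the TPM range of the next gene in the order. This included the close pairs SERPINI1 with DHRS2 and TUBB3 with SYP in the libraries labelled shHDAC5.

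**Figure D2:**
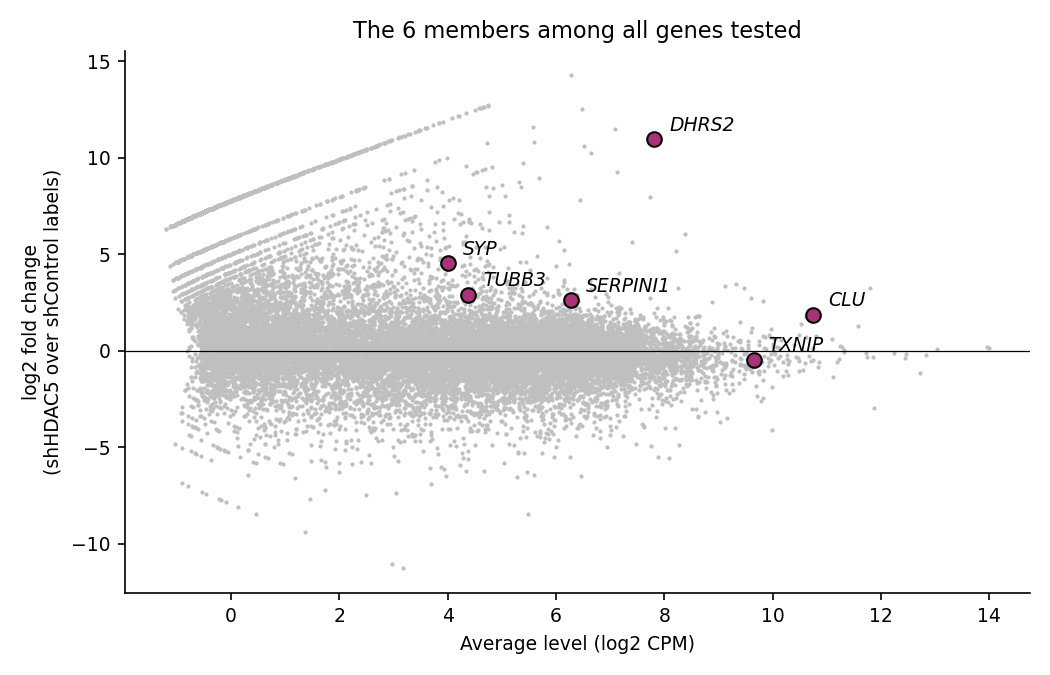
Log2 fold change (libraries labelled shHDAC5 over shControl, vertical axis) against average level (log2 CPM, horizontal axis) for the 19181 genes tested, in grey, with the 6 genes marked. DHRS2 stands near the top at 10.96, CLU (1.86) and TXNIP (-0.48) lie among the abundant genes at the right, and the horizontal line marks no difference.

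DHRS2 (ENSG00000100867, chromosome 14, 23630115 to 23645639, GRCh38) encodes a short-chain dehydrogenase/reductase, known under its older name HEP27 as a protein of butyrate-treated liver cancer cells. It had 5, 3 and 2 counts in the libraries labelled shControl and 7614, 7734 and 7829 counts in those labelled shHDAC5. In CPM this was 0.322, 0.210 and 0.121, next to 450, 443 and 438. The gene went from a level at which single reads matter to rank 442 of 61541 by TPM, from rank 27098. The log2 fold change was 10.96, and 33 of the genes tested had a larger rise. With 1 library left out, the log2 fold change of DHRS2 ran from 10.63 to 11.34. The ratio of counts, scaled for library size, was 2058, with a 95% exact binomial interval of 1119 to 4293 that covers counting error only. The relative spread in the libraries labelled shControl, a coefficient of variation of 46.4%, was 1.40% at the higher level.

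The 250 bases before the listed start of DHRS2, shown because a peak of the binding data overlaps them, lie at chr14:23629865-23630114 on the plus strand (RefSeq, GRCh38.p14). Capitals mark matches to the motifs searched on both strands in the promoter windows.
DHRS2: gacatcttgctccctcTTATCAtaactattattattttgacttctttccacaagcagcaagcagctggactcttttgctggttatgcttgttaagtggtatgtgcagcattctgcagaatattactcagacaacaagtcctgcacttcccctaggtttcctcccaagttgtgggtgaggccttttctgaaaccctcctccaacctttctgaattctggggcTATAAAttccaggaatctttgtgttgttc
The window holds TATAAA 29 bases before the start and, 234 bases before it, TTATCA, which is TGATAA on the opposite strand. TATAAA, the TATA box, occurs in 10.7% of 35116 promoter windows of that length, and TGATAA in 6.66%. Its GC content of 43.2% is below the median of 58% over all windows, and 18.6% of windows have a lower one. Windows were found for 5 of the 6 genes. The other motifs searched were GGGCGG (the GC box, in 42.6% of windows), CCAAT (32.0%), CACGTG (the E-box, 6.34%), AGATAA (9.17%) and the pair of CACGAG described for TXNIP. A match is a stretch of letters only, and whether any protein binds there was not measured by it.

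The relatives of DHRS2 went in both directions. Of 16 listed dehydrogenase/reductase and carbonyl reductase genes, 14 were tested, of which 5 rose (35.7%, next to 44.8% of all genes), 7 fell and 2 did not pass the test. Their median log2 fold change was -0.23. DHRS9, among the 5, had 2 counts in the libraries labelled shControl and 114 in the others. It passed the filter on low counts only through the latter, so its direction was fixed. CBR1, which reduces carbonyl compounds and prostaglandins, rose from 26.5 ± 3.24 to 46.2 ± 0.881 CPM (SD, n = 3), DCXR, a xylulose reductase, rose from 25.3 to 37.98 CPM, and CBR4, a mitochondrial reductase, from 16.2 to 24.1 CPM. DHRSX, in a region shared by the X and Y chromosomes where reads can be ambiguous, fell from 31.6 ± 1.11 to 1.85 ± 0.479 CPM (SD, n = 3). DHRS3, a retinaldehyde reductase, fell from 46.4 ± 0.879 to 3.42 ± 0.495 CPM (SD, n = 3). DHRS4 and DHRS4L2, near-identical copies further along chromosome 14 that can share reads, fell from 13.6 to 4.14 CPM (DHRS4) and 11.03 to 3.27 CPM (DHRS4L2).

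CLU (ENSG00000120885, chromosome 8, 27596917 to 27614700) encodes clusterin, a secreted chaperone that holds misfolded proteins in solution and inhibits the terminal complement complex. It had 724, 746 and 758 CPM in the libraries labelled shControl and 2707, 2662 and 2722 CPM in those labelled shHDAC5, 743 ± 17.5 against 2697 ± 31.4 CPM (SD, n = 3). The log2 fold change was 1.86 (standard error 0.0226), or 3.63-fold. Since CLU was abundant in both groups, this was the largest gain in reads of the 6 genes. Its share of all counts was 0.0680% to 0.0704% under the label shControl and 0.284% to 0.288% under the label shHDAC5, and its rank by TPM went from 224 to 36. By fold it stood lower, with 3073 genes showing a larger rise.

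LRP8 and VLDLR, lipoprotein receptors that bind clusterin, were lower where CLU was higher. They fell from 84.2 ± 4.97 to 17.1 ± 0.930 CPM (LRP8) and 46.3 ± 0.913 to 18.5 ± 1.84 CPM (VLDLR, SD, n = 3 for both). Of the 6 tested among 8 listed receptors, extracellular chaperones and complement regulators, these 2 fell and 4 rose (66.7%, next to 44.8% of all genes). The median log2 fold change of the 6 was 0.45. A2M, a secreted protease trap and chaperone, rose from 3.08 ± 0.417 to 74.2 ± 2.25 CPM (SD, n = 3), and APOE, a lipoprotein component, from 1.03 to 3.36 CPM. VTN, vitronectin, another inhibitor of the terminal complex, rose from 2.51 to 3.62 CPM with an adjusted p of 0.0191 (edgeR's quasi-likelihood test), which became 0.176 without shControl replicate 2 and 0.0561 without shHDAC5 replicate 2. CD59, the membrane inhibitor of that complex, was the fourth gene that rose, from 480 to 625 CPM. LRP2, also listed as a clusterin receptor, had too few counts to be tested, 0 in the libraries labelled shControl and 29 in the others.

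SERPINI1 (ENSG00000163536, chromosome 3, 167735721 to 167825569) encodes neuroserpin, a secreted inhibitor of tissue-type plasminogen activator that is best known from neurons. It had 18.9, 21.8 and 22.9 CPM in the libraries labelled shControl and 130, 131 and 132 CPM in those labelled shHDAC5. The coefficient of variation was 9.82% in the former and 0.583% in the latter. The means were 21.2 ± 2.08 and 131 ± 0.764 CPM (SD, n = 3), a log2 fold change of 2.63 (standard error 0.0512), or 6.19-fold. SERPINI1 went from rank 4690 to rank 416 by TPM. Its promoter window, with a GC content of 64.8%, held none of the motifs searched.

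The enzyme that neuroserpin inhibits was higher too. PLAT, tissue-type plasminogen activator, rose from 10.1 ± 0.180 to 127 ± 2.11 CPM (SD, n = 3), and SERPINE2, protease nexin, another inhibitor, from 22.03 ± 1.67 to 108 ± 2.96 CPM. PLAU, the urokinase-type activator, fell from 13.0 ± 0.403 to 0.499 ± 0.0801 CPM (SD, n = 3). Its receptor PLAUR fell from 56.8 to 30.9 CPM and LRP1, the receptor that clears complexes of activators and serpins, from 1406 to 925 CPM. Of 9 listed genes of the plasminogen system 6 were tested, of which PLAT and SERPINE2 rose (33.3%, next to 44.8% of all genes) and 4 fell. The median log2 fold change of the 6 was -0.47. PLG, the gene for plasminogen itself, had 0 counts in the libraries labelled shControl and 3 in the others.

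SYP and TUBB3, proteins of nerve cells, both had few counts in the libraries labelled shControl, and both start in GC-rich sequence. The 250 bases before each listed start (for TUBB3 the second of its 2 listed starts) are shown because these genes were higher together, and capitals mark GC boxes on either strand and CCAAT, which reads ATTGG on the opposite strand. They are chrX:49200194-49200443, minus strand, and chr16:89923092-89923341, plus strand, both 5′ to 3′ along the gene (RefSeq, GRCh38.p14).
SYP: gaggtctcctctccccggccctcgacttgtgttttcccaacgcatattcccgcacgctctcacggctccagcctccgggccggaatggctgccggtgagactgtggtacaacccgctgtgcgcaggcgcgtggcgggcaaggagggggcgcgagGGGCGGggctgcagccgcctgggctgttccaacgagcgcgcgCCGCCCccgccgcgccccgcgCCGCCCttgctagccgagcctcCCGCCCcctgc
TUBB3: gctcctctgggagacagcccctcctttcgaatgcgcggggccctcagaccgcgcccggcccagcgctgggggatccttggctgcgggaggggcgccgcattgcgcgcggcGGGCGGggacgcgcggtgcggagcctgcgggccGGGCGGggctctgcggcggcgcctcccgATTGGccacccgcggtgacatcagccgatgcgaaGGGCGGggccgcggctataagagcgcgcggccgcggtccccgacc
The SYP window holds 4 GC boxes, 96, 54, 33 and 11 bases before the start, in a GC content of 74%. The TUBB3 window holds 3, at 140, 107 and 45 bases, with a CCAAT match at 79 bases, in a GC content of 78% that exceeds that of 94.3% of all windows. GC boxes stand in 42.6% of all windows, so a match is common.

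SYP (ENSG00000102003, chromosome X, 49187815 to 49200193) encodes synaptophysin, a membrane protein of synaptic vesicles that pathologists use as a marker of neuroendocrine tumours. It had 18, 15 and 25 counts in the libraries labelled shControl and 508, 498 and 523 counts in those labelled shHDAC5. In CPM this was 1.16, 1.05 and 1.51, next to 30.0, 28.5 and 29.2. Its log2 fold change was 4.54, and the ratio of counts, scaled the same way, was 23.4 with a 95% exact interval of 18.0 to 31.0. SYP moved from rank 20886 to rank 8248 by TPM, so at its higher level it was still a gene of modest abundance.

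Other vesicle genes changed in both directions. Of 16 listed relatives and partners of synaptophysin 13 were tested, with 7 higher (53.8%, next to 44.8% of all genes), 4 lower and 2 that did not pass. Their median log2 fold change was 0.49. SYPL2, SYN1 and SYT1, all among the 7, had 2, 2 and 7 counts in the libraries labelled shControl. They passed the filter on low counts only through the libraries labelled shHDAC5, so their direction was fixed by it. STX1A, a syntaxin of the fusion machinery, rose from 14.9 ± 0.636 to 104 ± 4.89 CPM (SD, n = 3). VAMP1, its vesicle partner, rose from 18.5 ± 1.68 to 66.9 ± 3.60 CPM and RAB3A, a vesicle GTPase, from 9.07 ± 0.619 to 32.7 ± 0.607 CPM. Of the relatives of SYP, SYPL1 fell from 53.7 to 24.3 CPM, SYNGR3 from 32.2 to 9.78 CPM and SYNGR1 from 18.5 to 10.6 CPM, while SYNGR2 rose from 62.0 to 87.2 CPM. SYPL2 had 2 counts against 108, a ratio of 48.0 with a 95% exact interval of 13.0 to 401. SNAP25 (41.9 and 44.5 CPM) and DNAJC5 (143 and 139 CPM) did not pass the test, though under scaling by total counts both were called higher, at log2 fold changes of 0.27 and 0.15.

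REST, a repressor that recruits deacetylases, keeps many neuronal genes off outside the nervous system. Of 14 listed neuronal genes with known REST sites 8 were tested, with 6 higher (75%, next to 44.8% of all genes) and 2 lower. Their median log2 fold change was 2.61, also with NEFL at its lower bound. NEFL and CHGA passed the filter on low counts only through the libraries labelled shHDAC5, so their direction was fixed by it. SCG2 had 35 counts in the libraries labelled shControl, at 0.349 CPM in the lowest. It also needed the libraries labelled shHDAC5 to pass the filter, which favoured a rise. The summed level of the 14 was 602 to 651 CPM under the label shControl and 480 to 502 CPM under the label shHDAC5. VGF, a secreted neuropeptide precursor, rose from 1.12 ± 0.203 to 78.5 ± 5.78 CPM (SD, n = 3), and SCG2, a granin, from 0.737 ± 0.349 to 23.6 ± 1.51 CPM. NEFL, a neurofilament, had 0 counts in the libraries labelled shControl and 204 in the others, at least 60.4-fold higher against a floor of 3 counts over the group. L1CAM, a cell adhesion molecule, fell from 400 to 136 CPM and BDNF, a neurotrophin, from 16.1 to 6.79 CPM. CHGA, chromogranin A, also a neuroendocrine marker, had 1 count against 38, a ratio of 33.7 with a 95% exact interval of 5.70 to 1368. The 8 other neuroendocrine and neuronal markers summed to 4.89 to 5.34 CPM under the label shControl and 5.04 to 6.09 CPM under the label shHDAC5. INSM1 had no count in any library, NEUROD1 and CHGB had 0 counts against 18 and 3, and of the 2 tested RBFOX3 rose (1.52 to 2.89 CPM) and NCAM1 fell (3.46 to 1.92 CPM). The part of such cells in the levels of SYP and TUBB3 was not tested.

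REST and its corepressor partners were mostly lower. REST fell from 45.6 ± 1.21 to 30.3 ± 2.86 CPM (SD, n = 3), RCOR2, a CoREST protein, from 7.23 to 3.16 CPM, and EHMT2, a histone methyltransferase, from 87.7 to 54.7 CPM, while SIN3A, a scaffold of deacetylase complexes, rose from 70.7 to 83.2 CPM. Of the 7 genes of this list 6 fell and 1 rose (median log2 fold change -0.28), where 39.9% of all genes fell and 44.8% rose. Under scaling by total counts, which moves the median log2 fold change of all genes up by 0.18, 3 fell and 2 rose.

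TUBB3 (ENSG00000258947, chromosome 16, 89921925 to 89936097) encodes class III beta-tubulin, the isotype typical of neurons. It had 3.60, 6.08 and 4.53 CPM in the libraries labelled shControl and 35.6, 35.3 and 34.9 CPM in those labelled shHDAC5. Replicate 2 was the highest of the former, and it still lay far below the others. The means were 4.74 ± 1.25 and 35.3 ± 0.351 CPM (SD, n = 3), a log2 fold change of 2.91 (standard error 0.102), or 7.45-fold. The start of the gene lies next to MC1R, and reads of transcripts that span both cannot be assigned here.

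The isotypes of beta-tubulin changed their shares. TUBB3 made up 0.162% ± 0.0436 (SD, n = 3) of the summed TPM of 9 beta-tubulin genes in the libraries labelled shControl and 1.40% ± 0.0227 in those labelled shHDAC5. TUBB, the main isotype of dividing cells, went from 47.8% ± 0.0899 to 16.1% ± 0.180 and TUBB4B from 43.2% ± 0.11 to 69.2% ± 0.117, so that TUBB4B took first place. TUBB2A went from 0.486% to 6.11%, TUBB4A from 0.340% to 1.92% and TUBB6 from 7.98% to 5.03%. TUBB3 therefore remained a minor isotype. Beta-tubulin genes are similar in sequence, and how the authors counted reads that fit several of them is not stated in the labels.

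**Figure D3:**
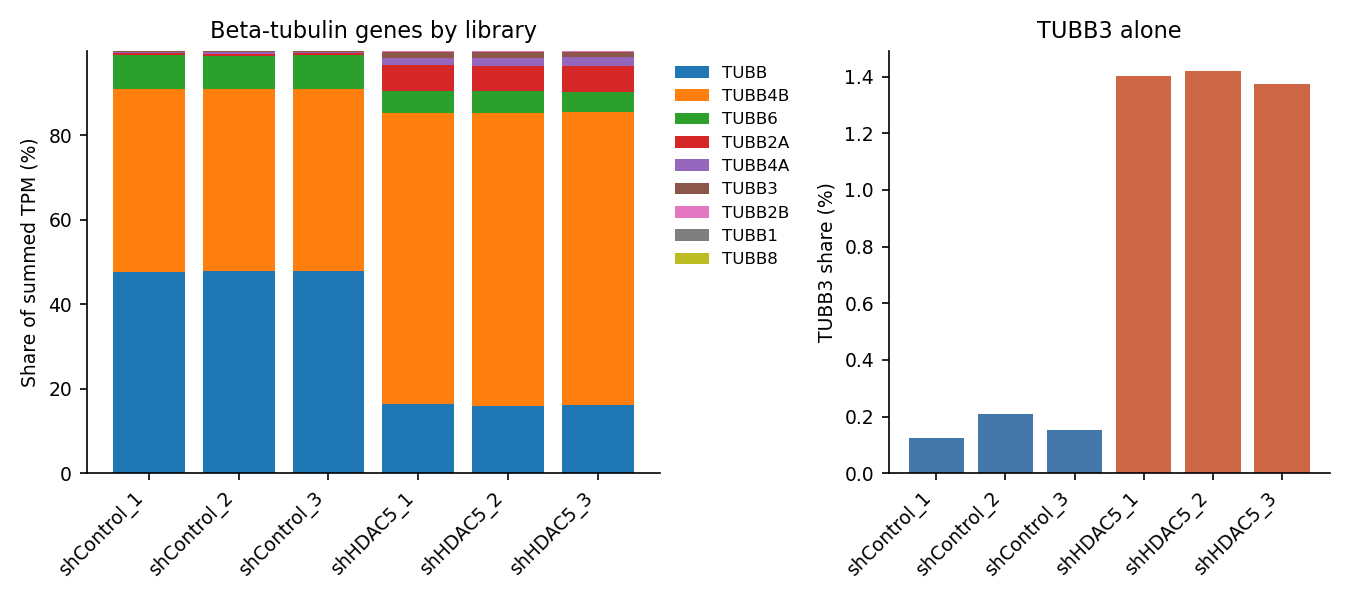
Left, share (%) of each of 9 beta-tubulin genes in their summed TPM, stacked for each library, and right, the share of TUBB3 alone on its own axis from 0. TUBB goes from 47.8% to 16.1% between the labels while TUBB4B reaches 69.2%, and TUBB3 goes from 0.162% to 1.40%.

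Among 16 tested of 17 listed tubulins and neuronal microtubule proteins, 9 rose (56.25%, next to 44.8% of all genes), 6 fell and 1 did not pass. Their median log2 fold change was 0.30. STMN2 and DCX, both among the 9, had 0 counts in the libraries labelled shControl. They passed the filter on low counts only through the libraries labelled shHDAC5, so their direction was fixed by it. MAP2, a dendritic microtubule protein, rose from 3.15 ± 0.264 to 93.6 ± 1.20 CPM (SD, n = 3), and TUBB2A from 5.58 ± 0.440 to 60.3 ± 2.00 CPM. STMN2, a neuronal stathmin, had 0 counts in the libraries labelled shControl and 271 in the others, at least 80.2-fold higher against the same floor. TUBB fell from 769 ± 12.4 to 223 ± 4.95 CPM (SD, n = 3), with the alpha-tubulins TUBA1B falling from 384 to 117 CPM and TUBA1C from 211 to 109 CPM. MAPT, which encodes tau, passed at an adjusted p of 0.0363 (edgeR's quasi-likelihood test) at 35.5 and 39.1 CPM, and leaving out shControl replicate 2, shControl replicate 3, shHDAC5 replicate 1 or shHDAC5 replicate 2 ended the call (adjusted p of 0.418, 0.0897, 0.171 and 0.0965).

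TXNIP (ENSG00000265972, chromosome 1, 145992435 to 145996579) encodes an arrestin-fold protein that binds thioredoxin and restrains glucose uptake, and its transcription follows glucose through the factor MondoA with its partner MLX. It had 945, 924 and 951 CPM in the libraries labelled shControl and 685, 669 and 675 CPM in those labelled shHDAC5, 940 ± 14.1 against 676 ± 8.24 CPM (SD, n = 3). It was thus the exception among the 6, at 71.9% of its level in the libraries labelled shControl. The log2 fold change was -0.48 (standard error 0.0234), and it depended on the scaling: -0.34 with upper-quartile factors and -0.29 with total counts. TXNIP remained abundant in both groups, at ranks 86 and 99 by TPM.

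The 250 bases before the main listed start of TXNIP, at chr1:145996580-145996829 on the minus strand (RefSeq, GRCh38.p14), are shown for the element through which the gene is known to respond to glucose. Capitals mark ATTGG and CCAAT, and the pair of CACGAG set 5 bases apart.
TXNIP: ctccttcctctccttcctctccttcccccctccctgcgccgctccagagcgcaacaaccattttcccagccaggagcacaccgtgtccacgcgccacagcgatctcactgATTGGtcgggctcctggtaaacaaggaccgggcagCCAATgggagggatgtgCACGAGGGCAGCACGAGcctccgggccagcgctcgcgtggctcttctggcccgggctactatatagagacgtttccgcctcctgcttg
The CCAAT matches begin 140 and 105 bases before the start, and the pair begins 88 bases before it. The pair of CACGAG occurs in 2 of 35116 windows on either strand, those of TXNIP and KCTD5, an adaptor of a ubiquitin ligase. KCTD5 rose from 64.5 ± 1.38 to 133 ± 4.72 CPM (SD, n = 3). Other forms of the element, with different letters in either part, were not searched.

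A close relative of TXNIP in the arrestin family went the other way. ARRDC4, also a target of MondoA, rose from 57.5 ± 3.41 to 548 ± 3.97 CPM (SD, n = 3), a log2 fold change of 3.25, while ARRDC2 fell from 62.0 ± 1.72 to 16.0 ± 2.05 CPM and ARRDC3 from 60.0 to 28.9 CPM. The promoter window of ARRDC4 holds 1 CACGTG and no CACGAG. TXN, the thioredoxin that TXNIP binds, fell from 162 ± 7.07 to 67.8 ± 2.83 CPM (SD, n = 3), and TXNRD1, the reductase that recharges it, rose from 489 ± 2.50 to 1090 ± 4.46 CPM. DDIT4, a stress-induced inhibitor of mTORC1, fell from 515 to 115 CPM, SLC2A1, the glucose transporter, from 187 to 79.5 CPM, and NEDD4L, a ubiquitin ligase, rose from 77.5 to 184 CPM. Of 18 listed arrestin, thioredoxin and MondoA pathway genes 17 were tested, with 6 higher (35.3%, next to 44.8% of all genes), 10 lower and 1 that did not pass. Their median log2 fold change was -0.26. MLXIP, the gene for MondoA, differed little (141 and 128 CPM), and its call as lower did not hold with upper-quartile factors or total counts.

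Other genes named as induced by deacetylase inhibitors were mostly higher too. Of 21 listed, 20 were tested, with 16 higher (80% against 44.8% of all genes) and 4 lower, and a median log2 fold change of 0.65 next to 0.09. CPA4, a carboxypeptidase first described as a gene induced by butyrate, rose from 1.63 ± 0.353 to 416 ± 4.59 CPM (SD, n = 3). KLF2, a transcription factor, rose from 1.45 ± 0.372 to 61.5 ± 1.80 CPM and GADD45A, a stress protein that halts growth, from 15.3 ± 1.20 to 86.5 ± 4.004 CPM. Among the 4 that fell were ALPP, placental alkaline phosphatase, from 79.3 to 13.3 CPM, HEXIM1, an inhibitor of P-TEFb, from 78.1 to 57.8 CPM, and KLF4, a transcription factor, from 199 to 149 CPM. CDKN1A, the cell cycle inhibitor p21 and the gene most often cited for these drugs, rose from 159 ± 1.96 to 224 ± 6.31 CPM. Metallothionein genes and ALPP have near-identical copies, so the calls of MT1X, MT1E and ALPP are less certain.

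Genes named as lowered by such inhibitors were all lower. Of 12 listed, 12 were tested and 12 fell (39.9% of all genes did), at log2 fold changes from -4.03 to -1.34 with a median of -2.38. MYC, the growth-promoting transcription factor, fell from 558 ± 5.67 to 34.2 ± 1.43 CPM (SD, n = 3), and TYMS, thymidylate synthase, from 43.7 ± 2.17 to 3.00 ± 0.924 CPM. Many of the 12 are genes of dividing cells, among them CCNA2, CCNB1 and BIRC5. Whether a difference in growth between the cultures accompanied these levels was not tested.

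The deacetylases themselves changed in both directions, with 6 of 11 zinc-dependent genes higher (54.5%, next to 44.8% of all genes) and 5 lower. Their median log2 fold change was 0.26. HDAC3, the enzyme of the NCoR complex, rose from 53.8 ± 2.22 to 171 ± 4.38 CPM (SD, n = 3), HDAC11 from 7.87 to 23.9 CPM and HDAC9 from 3.85 to 8.17 CPM. HDAC7, a class IIa relative of HDAC5, fell from 93.6 ± 3.16 to 18.0 ± 1.21 CPM (SD, n = 3), HDAC4, also of class IIa, from 64.7 to 37.2 CPM and HDAC10 from 3.10 to 1.72 CPM. HDAC8, called lower at 23.3 and 20.1 CPM, lost that call without shControl replicate 1 (adjusted p of 0.0773, edgeR's quasi-likelihood test), with DESeq2 (adjusted p of 0.0837) and with upper-quartile factors or total counts, where its log2 fold change was -0.08 and -0.03.

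**Figure D4:**
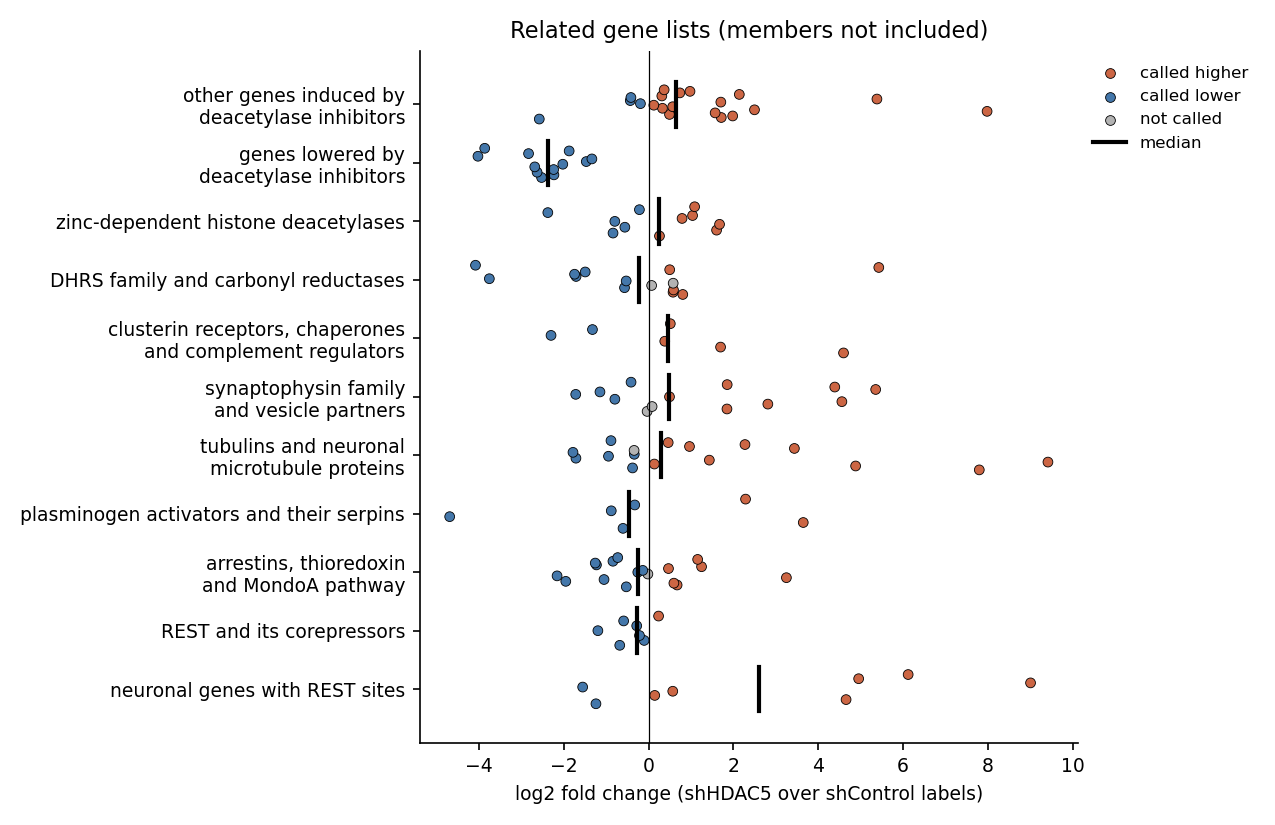
Log2 fold change (libraries labelled shHDAC5 over shControl) of each tested gene of 11 related lists, coloured by its call, with a black bar at the list's median. The genes lowered by deacetylase inhibitors lie to the left of 0 without exception, those induced lie mostly to the right (16 of 20), and the other lists spread over both sides.

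The genes next to the 6 went in both directions. Of 32 protein-coding genes within 100 kb of any of the 6, 27 were tested, with 13 higher (48.1%, next to 44.8% of all genes), 12 lower (44.4%, next to 39.9%) and 2 that did not pass, and a median log2 fold change of 0.15. ITGA10, ZFHX2 and FOXP3, all among the 13, had 1, 25 and 23 counts in the libraries labelled shControl. They needed the libraries labelled shHDAC5 to pass the filter on low counts, which favoured a rise. SCARA3, a scavenger receptor-like gene 18763 bases from CLU, fell from 102 ± 8.73 to 5.73 ± 0.805 CPM (SD, n = 3), and EPHX2, a soluble epoxide hydrolase on the other side of CLU, rose from 12.4 to 22.2 CPM. PDCD10, 829 bases from SERPINI1, rose from 67.0 ± 2.55 to 75.8 ± 1.29 CPM, a log2 fold change of 0.18 beside the 2.63 of SERPINI1. MC1R, 953 bases from TUBB3, had 14.8 and 12.1 CPM, and TCF25 fell from 171 to 71.3 CPM. Near SYP, CACNA1F, a calcium channel gene 4870 bases away, rose from 1.32 to 6.17 CPM, whereas PRICKLE3 at 1442 bases fell from 28.9 to 14.4 CPM and PLP2 from 162 to 62.1 CPM. Near DHRS2, ZFHX2 rose from 0.537 to 3.16 CPM and THTPA fell from 9.41 to 6.79 CPM. Near TXNIP, the nearest tested gene POLR3GL (10.8 and 12.0 CPM) did not pass the test, though with total counts it was called higher at a log2 fold change of 0.33, and RBM8A fell from 46.8 to 28.4 CPM. With total counts MC1R (-0.11) and GPKOW (-0.06) were no longer called lower. FOXP3, with 23 and 49 counts, lost its call as higher when shControl replicate 1 or 3 or shHDAC5 replicate 1 or 3 was left out (adjusted p of 0.107, 0.172, 0.166 and 0.0568, edgeR's quasi-likelihood test). WDR45 lost its call without shControl replicate 2 (adjusted p of 0.0544).

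The gene with the most similar levels over the 6 libraries was found for each of the 6 as the smallest Euclidean distance in log2 CPM. For DHRS2 it was ANKRD1, at 0.435 and 272 CPM, but at a distance of 2.21, and no gene lay within 1. For CLU it was HSPA5 (718 and 2420 CPM, distance 0.28), for SYP DISP2 (1.09 and 27.4 CPM, 0.37) and for TUBB3 SELENOP (4.57 and 35.9 CPM, 0.42). For SERPINI1 it was GALNT10 (20.5 and 135 CPM, 0.21) and for TXNIP RPL19 (904 and 640 CPM, 0.18). SERPINI1 and TXNIP had the most company, with 41 and 53 genes within a distance of 1.

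The binding data, which the choice of the 6 genes did not use, held GATA1 peaks near most of them, as near most genes. GATA1 is a zinc-finger factor named for the letters GATA in the sites it binds. The list labelled shControl holds 121070 peaks and that labelled shHDAC5 holds 249139. Only 6176 of the former and 1045 of the latter had a q of at most 0.05. Peak names contradict the labels. Names under the label shControl contain SAHA, an abbreviation of vorinostat, and names under the label shHDAC5 contain NC, which the sample titles use for the shControl samples. Which cells each list came from is therefore uncertain, and no change between the lists is read here. In the list labelled shControl, 4 of the 6 genes had a summit in the gene or within 5 kb (79.0% of 20037 coding genes did), with 12 summits in all. In the list labelled shHDAC5, 5 of the 6 did (86.7% of coding genes), with 16 summits. With 1 list per condition there is no replicate check.

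By gene, the numbers of summits in the lists labelled shControl and shHDAC5 were 1 and 2 for DHRS2, 0 and 1 for CLU, 3 and 3 for SYP, 5 and 1 for TUBB3, 3 and 9 for SERPINI1, the longest of the 6 genes, and 0 and 0 for TXNIP. The authors' fold enrichment of these peaks ranged from 1.71 to 4.63, and no peak of either list overlapped a peak of the other. A single peak had a q of at most 0.05. It lies within SERPINI1, at chr3:167802502-167802917, 66947 bases after the start, with a fold of 4.63, a −log10 q of 2.23 and the label shHDAC5. Of the peaks of its list, 99.9% had a fold at or below that of this peak. The peaks nearest to the starts differed in strength. A peak labelled shHDAC5 at chr14:23629928-23630185, with its summit 129 bases before the start of DHRS2, overlaps most of the window printed for DHRS2, though not its TTATCA. Its fold was 1.71, with 6.61% of its list at or below that fold. In the list labelled shControl, summits lay 504 bases before the second start of TUBB3 (fold 3.23, with 80.2% of that list at or below it) and 475 bases before the start of SERPINI1 (fold 2.53, with 30.8% at or below it).

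**Figure D5:**
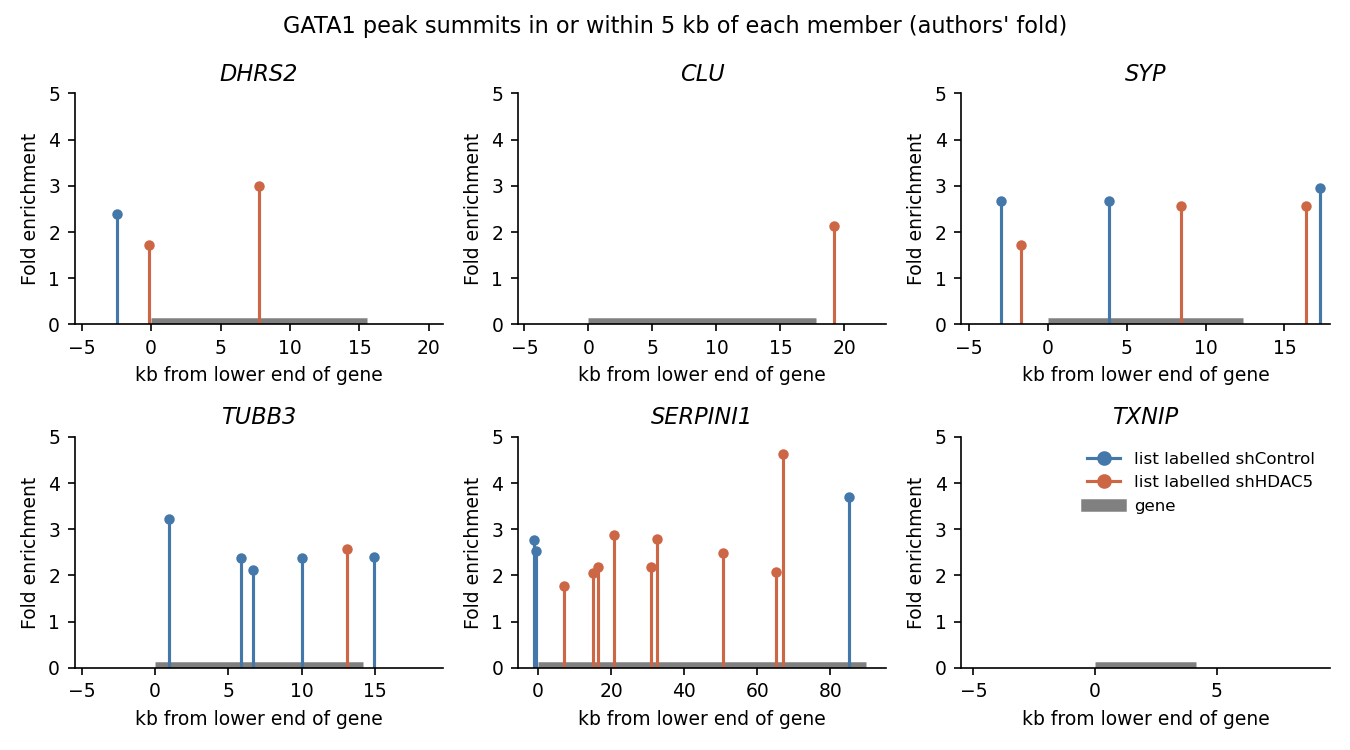
Summits of GATA1 peaks in or within 5 kb of each gene, by distance in kb from the gene's lower coordinate (horizontal axis) and by the authors' fold enrichment (vertical axis), blue for the list labelled shControl and red for that labelled shHDAC5, with the gene as a grey bar. Folds stay between 1.71 and 4.63, TXNIP has no summit, and the highest stands inside SERPINI1.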

How the data were processed

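The data are 6 RNA libraries labelled BxPC-3 and 8 samples of GATA1 binding labelled PANC-1, grouped by treatment and antibody in the labels. The RNA table holds raw counts per gene and a gene length, as the authors deposited them. Per the submitters' processing notes, the build was hg38 and the tools included MACS2 2.2.7.1, featureCounts 2.0.1, fastp 0.23.2 and FastQC 0.11.9. For the aligner, annotation release, strand setting and any pooling of immunoprecipitations, nothing is given in the sources used here. Reads of genes that overlap, lie antisense or are near copies may therefore be misassigned. Each deposited peak carries the authors' fold enrichment as a ratio and a −log10 q. The inputs were not analysed here.

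Fits used edgeR 4.0.16 and DESeq2 1.42.0 in R 4.3.3, and tables and plots used pandas 2.3.3, scipy 1.17.1 and matplotlib 3.10.9 in Python 3.11.15. After edgeR's filter on low counts and TMM scaling, genes were tested by group with edgeR's quasi-likelihood test, p-values being adjusted by Benjamini-Hochberg over all 19181 genes and a threshold of 0.05. A gene at or near 0 in 1 group could pass the filter only through the other group, which fixed its direction. CPM use TMM-scaled library sizes, and TPM divide counts by the deposited lengths. The standard error of a log2 fold change is its absolute size divided by the square root of the test's F value. It can be too small where 1 group has few counts, so none is given for DHRS2 and SYP. Euclidean distances use log2 CPM with a prior count of 2. In counts simulated over 16300 genes, the test found 100 of 100 genes with a 2-fold change, 62 of 100 with a 1.25-fold change and 8 false ones, and DESeq2 found 137 of both kinds. The simulation used 1 spread for all genes and changed only these few. In the data 44.8% of genes were called higher and 39.9% lower, so the error rate where most genes differ was not tested. Samples of a group were not duplicates (chi-square per degree of freedom 1.56 to 1.99). Replicate numbers did not pair the samples (correlation of deviations between -0.0126 and 0.00593).

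The 6 genes and the 11 gene lists and 4 marker lists were chosen with earlier results of these data known, so they are no independent evidence. Named genes are the 6, HDAC5, up to 3 called genes per list and direction with the largest change at an average log2 CPM of at least 1, coding genes within 100 kb, and the most similar gene. Some genes that meet this rule are not reported here. CD59, CHGA, DHRS4, MT1X, MT1E, TUBB4A, TUBB4B, TUBB6, SYNGR2, SYPL2, SNAP25, DNAJC5, MAPT, ARRDC3, SLC2A1, MLXIP, HDAC8, CDKN1A, CCNA2, CCNB1, BIRC5, PLG, KCTD5 and, for being at or near 0, the markers KRT19, EPCAM, CDH1, CHGB, INSM1, NEUROD1 and LUM were named outside it, after their values were seen. LRP2, DHRS9, SYN1, SYT1 and DCX were likewise named outside that rule. Symbols were found for 61369 of 61541 gene IDs. DHRS4L1 matched 2 IDs and was left out. Positions and promoter sequences are from RefSeq, GRCh38.p14. Alternatives were other scalings, DESeq2, other filters, a block on the replicate number, omission of each library in turn, and other windows and thresholds for peaks.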

Additional observations from a re-analysis of the deposited data

How the results depend on the processing

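The 6 genes kept their direction under every alternative run: DESeq2, DESeq2 size factors, upper-quartile factors, total counts, no filter, a filter of 10 counts in a whole group, the replicate block and leaving out each library. The log2 fold change of TXNIP was -0.44 with DESeq2 size factors and with DESeq2, -0.34 with upper-quartile factors, -0.29 with total counts and -0.52 without a filter, and between -0.51 and -0.48 when 1 library was left out. CLU was at 2.00 with upper-quartile factors, 2.04 with total counts and 1.82 without a filter, and SERPINI1 at 2.81 with total counts. These scalings move the median of all genes by 0.14 (upper-quartile) and 0.18 (total counts). Total counts changed 12 of 130 list calls and left 2 higher and 3 lower among REST and its corepressors, where TMM gave 1 and 6. With the replicate block 8514 genes were higher and 7558 lower, next to 8597 and 7644 without it, and 0 of the 130 list calls changed. Only FOXP3 of the neighbours lost its call (adjusted p = 0.0624, edgeR's quasi-likelihood test). The replicate numbers are shared labels only. A window of 50 kb gave 56 summits at 5 of the 6 genes in the list labelled shControl, where 93.6% of coding genes had a summit. In that labelled shHDAC5 it gave 74 at 6 of the 6 genes, where 98.2% of coding genes had a summit. At a q of at most 0.05 and the window of 5 kb, there were 0 summits at 0 of the 6 genes in the list labelled shControl (15.6% of coding genes had a summit). In the list labelled shHDAC5 there was 1 summit at 1 gene (1.99% of coding genes had a summit). Depth limits DHRS2 and SYP in the libraries labelled shControl, with 10 and 58 counts in all.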
